A study of Mus musculus with 11 samples.

Results

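10 genes of lipid droplet biology were followed through ribosome footprints of mouse liver, out of 22019 genes in the count table. They were Plin2 (ENSMUSG00000028494), Plin3 (ENSMUSG00000024197), Plin4 (ENSMUSG00000002831), Plin5 (ENSMUSG00000011305), Hsd17b13 (ENSMUSG00000034528), Cidea (ENSMUSG00000024526), Cideb (ENSMUSG00000022219), Cidec (ENSMUSG00000030278), Pparg (ENSMUSG00000000440) and Cd36 (ENSMUSG00000002944), and all 10 had a line in the table. The genes were chosen by name for their link to lipid droplets and fatty liver, with the diet differences measured in these libraries already known. Their diet differences are therefore a description: no p-value is given for them, and counts of genes past the threshold stand beside the share of all genes without anything being read from them. The ratio of disome to monosome footprints within a diet was taken as not part of that choice and was tested. Whether these ratios were also known when the genes were chosen is not stated, so their p-values hold only under that assumption.

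Footprints came from livers of male wild-type mice on a High Fat High Sugar (HFHS) diet or on a chow diet. The study asked how diet bears on ribosome movement: a monosome footprint, of about 30 nt, is mRNA covered by a single ribosome, and a disome footprint, of about 60 nt, is mRNA covered by a ribosome and another that has run up behind it. The libraries comprised 2 HFHS disome, 3 chow disome, 3 HFHS monosome and 3 chow monosome samples, each named here by the sample barcode in its column. The sources used here give neither strain, age nor time on the diet, nor whether each sample was a separate animal, so the tests measure the spread between these samples, which may be technical.

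Lipid droplets store triglyceride and cholesterol esters behind a phospholipid monolayer that carries a coat of proteins. In the liver, droplets enlarge when fatty acid supply exceeds oxidation and export, the state called steatosis. Perilipins (Plin genes) coat the droplet and control the access of lipases, CIDE proteins promote fusion and growth of droplets or, for Cideb, the loading of lipid onto very-low-density lipoprotein, and Hsd17b13 encodes a liver enzyme of the droplet surface. Pparg is a nuclear receptor that activates lipid storage genes, and Cd36 is a fatty acid transporter of the cell surface.

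Library totals ran from 235748 to 238837 counts in HFHS disomes, 147212 to 279331 in chow disomes, 1196240 to 1612324 in HFHS monosomes and 795145 to 1248781 in chow monosomes. A level is given in CPM, a library's counts scaled to the same total (counts per 1e6), and 3 counts correspond to 10.7 to 20.4 CPM in a disome library but only 1.86 to 3.77 CPM in a monosome library. Both chow libraries of barcode AGCTA lay away from the others: over genes with a mean above 50 CPM, the log2(CPM + 1) values of the monosome library correlated with the other chow monosome libraries at r = 0.82 and 0.83, against r = 0.98 between those, and the disome library likewise at r = 0.79 and 0.79, against r = 0.96. Levels of different genes are not ranked against each other, because no coding length was available here. Markers of hepatocytes and of other cell types were not analysed, since gene names could not be matched to the identifiers. In whole liver, a change in the number of cells of a type and a change of RNA per cell cannot be told apart.

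All 10 genes matched a RefSeq symbol (GRCm38.p6), and 9 of them, with 13 promoter windows in all, had an entry in the RefSeq promoter table. Each window spans 250 bases before to 50 bases after a transcript start. PPARG binds DNA together with RXR at a direct repeat of the half-site AGGTCA with 1 base between the copies, so each window was searched for this repeat on both strands with up to 2 mismatches. Windows of Plin2 and of Cd36 held a match, which made 2 of 13 windows, while 3.86% of all 32851 windows in the table held one. The windows of Plin2 (chr4:86670010-86670309, minus strand) and Cd36 (chr5:17835847-17836146, minus strand) are shown, read toward the gene, as the windows with a match. Capitals mark the match, which began 225 bases before the start of Plin2 and 63 bases before that of Cd36, each with 2 mismatches to the repeat on the opposite strand.
Plin2: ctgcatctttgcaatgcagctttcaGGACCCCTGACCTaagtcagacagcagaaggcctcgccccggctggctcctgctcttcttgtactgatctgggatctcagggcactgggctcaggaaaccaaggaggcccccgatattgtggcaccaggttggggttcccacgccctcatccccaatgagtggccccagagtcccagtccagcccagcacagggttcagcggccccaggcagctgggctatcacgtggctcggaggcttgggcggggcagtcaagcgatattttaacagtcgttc
Cd36: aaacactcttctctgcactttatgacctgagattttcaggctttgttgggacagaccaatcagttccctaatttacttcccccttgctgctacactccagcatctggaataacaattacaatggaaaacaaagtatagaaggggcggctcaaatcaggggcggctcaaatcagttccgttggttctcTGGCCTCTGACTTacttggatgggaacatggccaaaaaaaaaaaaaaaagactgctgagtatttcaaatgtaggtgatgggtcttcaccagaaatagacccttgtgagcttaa
A match is a description of letters and not a binding site shown by these data. None of the windows of Pparg, Cideb, Cidec, Plin3, Plin4, Plin5 and Hsd17b13 held a match under this rule, which says nothing about binding elsewhere.

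The diet comparison asked which droplet genes carried more ribosomes in HFHS liver. In monosomes, Pparg was 3.43-fold, Cd36 2.17-fold, Plin2 1.93-fold, Cideb 1.42-fold and Hsd17b13 1.37-fold of the chow level, while Plin5 (1.02-fold) and Plin3 (0.971-fold) lay near the chow level. Folds are from edgeR's fit over all genes and are relative to the average gene. Of the 10 genes, 8 passed the filter on low counts, and 7 of these were higher in HFHS, as were 48% of all genes tested. The 7 include Plin5, whose direction turned when some single libraries were left out. Of the 8 genes, 5 were called higher (adjusted p under the threshold of 0.05 over all genes tested) and 0 lower. The 5 were Pparg, Cd36, Plin2, Cideb and Hsd17b13. Of the 6754 genes tested, 3.02% were called higher and 1.63% lower. The same 5 genes had HFHS libraries that all lay above the chow libraries, as did 9.77% of the genes tested. Since the list was chosen with this contrast known, nothing is read from these counts. As a limit of these counts, Pparg fell short of the threshold without HFHS GATCA, chow ATCGT or chow CGTAA, Cideb without any of those or HFHS CTAGA, and Hsd17b13 without any of those 4 or chow AGCTA. The median log2 fold change of the 8 genes was 0.73, against -0.02 over all genes tested. The libraries hold no mRNA measurement, so more mRNA and more ribosomes per mRNA cannot be told apart.

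Among the perilipins, Plin2, the main perilipin of hepatocyte droplets, differed most clearly between the diets. Its monosome level was 746 CPM in CTAGA, 798 CPM in GATCA and 741 CPM in GCATA on HFHS, against 444 CPM in ATCGT, 389 CPM in AGCTA and 380.3 CPM in CGTAA on chow. Every HFHS library lay far above every chow library, and the SD of the 3 HFHS values was 4.17% of their mean. The log2 fold change was 0.95 ± 0.13 (SE). In disomes Plin2 had 1217 CPM in CTAGA and 1365 CPM in GCATA on HFHS, against 699.7 CPM in AGCTA, 779.6 CPM in ATCGT and 566 CPM in CGTAA on chow. The groups did not overlap in disomes either, and the log2 fold change was 0.91 ± 0.18 (SE).

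Plin5 and Plin3 lay near their chow level in monosomes. Plin5, a perilipin of oxidative tissues that tethers droplets to mitochondria, averaged 113 ± 15.1 CPM in HFHS monosomes and 114 ± 14.8 CPM in chow monosomes (SD, n = 3 each). Its log2 fold change was 0.03 with a 95% interval of -0.28 to 0.34. In disomes Plin5 had 165 CPM in CTAGA and 75.4 CPM in GCATA on HFHS, and 96.7 to 114 CPM in the 3 chow libraries, so the HFHS libraries enclosed the chow range. The log2 fold change was 0.18 ± 0.31, and -0.48 without HFHS CTAGA and 0.63 without HFHS GCATA. Plin3, a widely expressed perilipin that moves from the cytosol onto new droplets, averaged 64.3 ± 8.27 CPM in HFHS monosomes and 68.9 ± 11.8 CPM in chow monosomes. Its groups overlapped, with a log2 fold change of -0.04 (95% interval -0.41 to 0.32). In disomes Plin3 had 38.2 and 50.2 CPM on HFHS and 40.8 to 73.5 CPM on chow, again with overlap, and a log2 fold change of -0.45 ± 0.41.

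Plin4, a perilipin best known from adipocytes, was counted too rarely to pass the filter in monosomes. Its monosome counts were 8 in CTAGA, 15 in GATCA and 8 in GCATA on HFHS, against 3 in ATCGT, 4 in AGCTA and 1 in CGTAA on chow. In CPM the groups overlapped slightly, with 4.96 to 12.5 CPM on HFHS and 0.975 to 5.03 CPM on chow. In disomes its counts were 2 and 3 on HFHS, while 8 counts lay in the chow library ATCGT, 0 in AGCTA and 0 in CGTAA, so that 1 library held all chow disome counts of Plin4. Plin4 carries tandem repeats in its coding sequence, and the sources used here do not say how reads with several matches were counted. Without the filter, the fitted log2 fold change of Plin4 was 1.53 ± 0.56 in monosomes and -0.09 ± 0.90 in disomes. According to the RefSeq annotation, Plin4 and Plin5 are neighbours on chromosome 17 with 0 protein-coding genes between them, and Plin3 lies 7 protein-coding genes further on.

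Hsd17b13, a hydroxysteroid dehydrogenase family enzyme that is abundant on hepatocyte droplets, was slightly higher on HFHS in monosomes. It had 462 CPM in CTAGA, 513 CPM in GATCA and 413 CPM in GCATA on HFHS, against 346 CPM in ATCGT, 336 CPM in AGCTA and 357 CPM in CGTAA on chow. The groups did not overlap, and the log2 fold change was 0.45 ± 0.13. In disomes it had 356 and 385 CPM on HFHS and 297 to 363 CPM on chow, which overlapped, with a log2 fold change of 0.16 ± 0.21.

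**Figure D1:**
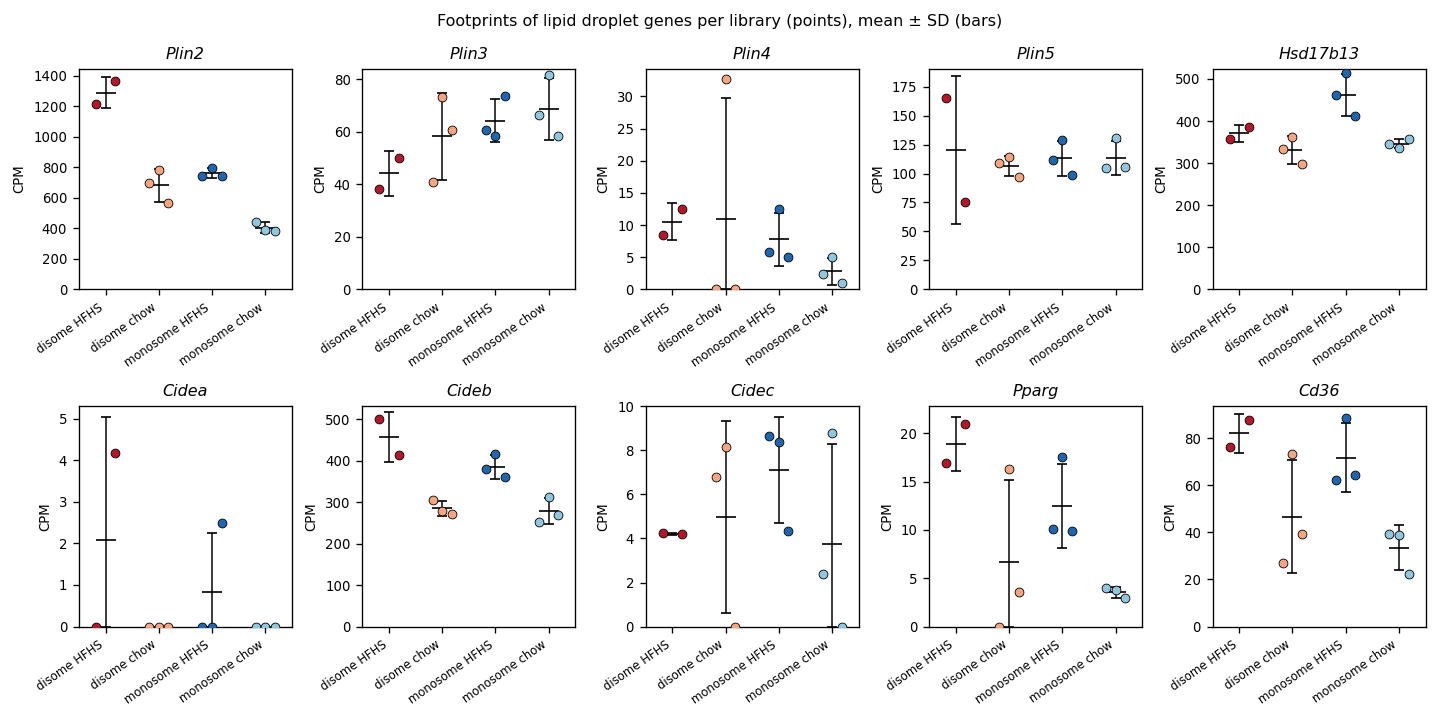
Footprint level of each of the 10 genes in every library, in CPM on linear axes that start at 0 and differ in scale between genes. Points are libraries and bars are the mean ± SD (n = 2 for disome HFHS, n = 3 for the other groups; the lower bar is cut at 0); for Plin2 the HFHS libraries lie above all chow libraries in both footprint classes, while for Plin5 and Plin3 the diets overlap.

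Of the CIDE genes, Cideb, the family member of normal liver, was higher on HFHS in both footprint classes. Its monosome level was 380.1 CPM in CTAGA, 417 CPM in GATCA and 359.7 CPM in GCATA on HFHS, against 253 CPM in ATCGT, 313 CPM in AGCTA and 270.1 CPM in CGTAA on chow. Its disome level was 500.5 CPM in CTAGA and 414.5 CPM in GCATA on HFHS, against 306 CPM in AGCTA, 277.5 CPM in ATCGT and 272 CPM in CGTAA on chow. In neither class did the groups overlap, and the log2 fold changes were 0.68 ± 0.21 in disomes and 0.51 ± 0.14 in monosomes. The disome call was lost when any 1 of the 5 libraries was left out.

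Cidec, which drives the growth of large droplets in adipocytes and in fatty liver, and Cidea, its relative of brown fat, were at the edge of detection. Cidec had monosome counts of 12 in CTAGA, 10 in GATCA and 7 in GCATA on HFHS, against 3 in ATCGT, 7 in AGCTA and 0 in CGTAA on chow. The chow library AGCTA, with 8.80 CPM, lay above all 3 HFHS libraries, of 4.34 to 8.67 CPM, so the groups overlapped. The log2 fold change of Cidec was 1.10 ± 0.64, and 2.37 with AGCTA left out but 0.50 with CGTAA left out, so these counts do not fix a size. In disomes Cidec had 1 count in each HFHS library, and 1, 2 and 0 counts in the chow libraries. Cidea had 4 monosome counts, all in the HFHS library GCATA, and 1 disome count, in the HFHS disome library of the same barcode. It had 0 counts in the other 9 libraries. A floor of 3 counts over the chow monosome group corresponds to 0.977 CPM, and the pooled HFHS monosome level was 0.954 CPM, so no fold is given.

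Pparg, which is low in healthy liver and high in adipocytes, showed the largest diet fold of the 8 genes tested. Its monosome counts were 14 in CTAGA, 21 in GATCA and 16 in GCATA on HFHS, against 5 in ATCGT, 3 in AGCTA and 3 in CGTAA on chow, which gives 9.92 to 17.6 CPM on HFHS and 2.93 to 4.00 CPM on chow. The groups did not overlap, and the log2 fold change was 1.78 ± 0.45, which ranked 12 of 6754 from the highest. No chow library reached the filter's minimum count of 10, so Pparg passed the filter only through the HFHS libraries, which favours a high rank. In disomes its counts were 4 and 5 on HFHS and 0, 4 and 1 on chow. Its CPM there was 17.0 and 20.9 on HFHS and at most 16.3 on chow, which did not overlap, but Pparg did not pass the filter in disomes. The fitted log2 fold change without the filter was 1.37 ± 0.85.

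Cd36 had 62.1 CPM in CTAGA, 88.6 CPM in GATCA and 64.5 CPM in GCATA in HFHS monosomes, against 39.2 CPM in ATCGT, 39.0 CPM in AGCTA and 22.4 CPM in CGTAA in chow monosomes. The groups did not overlap, and the log2 fold change of 1.12 ± 0.22 ranked 58 of 6754. In disomes Cd36 had 76.4 and 87.9 CPM on HFHS, against 27.2 CPM in AGCTA, 73.5 CPM in ATCGT and 39.4 CPM in CGTAA on chow. These groups were separated by a narrow gap, on 4 to 21 counts a library, and the log2 fold change was 0.74 ± 0.38. It was 1.22 without chow ATCGT and 0.53 without chow CGTAA. Cd36 is also expressed by macrophages, endothelial cells and adipocytes, and Pparg, Plin4 and Cidec are abundant in adipocytes; the part of such cells in these levels was not tested.

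Of the 10 genes, 6 passed the filter in disomes, and 2 of them, Plin2 and Cideb, were called higher and 0 lower, where 1.82% of 2804 genes tested were called higher and 1.14% lower. The HFHS disome libraries of Plin2, Cideb and Cd36, 3 of the 6 tested, lay above all chow disome libraries, as did 14.6% of the genes tested. Nothing is read from these counts either. The median log2 fold change of the 6 genes was 0.43, against -0.03 over all genes tested. Together the 10 genes took 0.238% and 0.242% of HFHS disome counts, against 0.134% to 0.174% of chow disome counts. In monosomes they took 0.177% to 0.204% of HFHS counts, against 0.120% to 0.131% of chow counts. Such shares lean on the genes with most counts and do not show a shift of all 10. Among HFHS disomes, Plin2 alone held 287 of the list's 562 counts in CTAGA and 326 of 578 in GCATA.

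**Figure D2:**
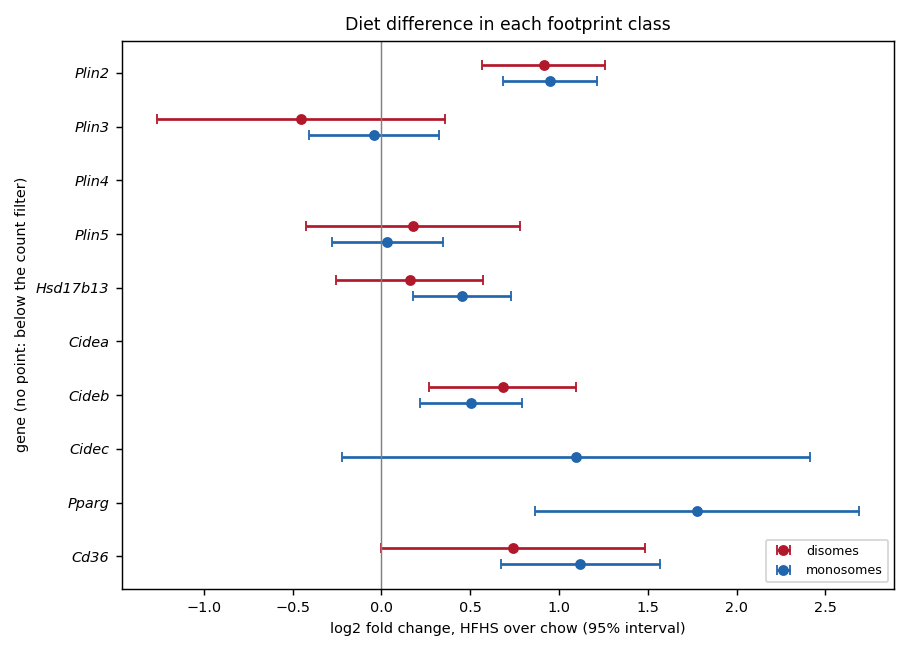
Log2 fold change of HFHS over chow with its 95% interval in edgeR's fit, in disomes and in monosomes, for each gene that passed the count filter. Plin2 lies at 0.91 in disomes and 0.95 in monosomes, Plin5 and Plin3 have intervals that cross 0 in both classes, and Pparg has the highest value with a wide interval.

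The next comparison asked whether the diet difference of each gene was of another size in disomes than in monosomes. It is built from the diet differences that were known when the genes were chosen, so for these genes it is a description as well. Of the 10 genes, 7 passed the filter in the model over all 11 libraries, and edgeR called 0 of them, as it called 0% of the 7236 genes tested. None of the 7 had an unadjusted p below 0.05, which 358 of all genes had, and DESeq2 also called 0. For Plin2 the difference of the diet effects, disomes minus monosomes, was 0.05 (log2) with a 95% interval of -0.40 to 0.50. For Cideb it was 0.26 (-0.24 to 0.76), for Hsd17b13 -0.22 (-0.71 to 0.28) and for Cd36 -0.30 (-1.17 to 0.57). The intervals of Plin3 (-1.17 to 0.53) and Plin5 (-0.44 to 0.89) were about as wide as that of Cd36, and that of Pparg (-2.28 to 1.56) was wider still. For 4 genes the direction turned when 1 library was left out: without the chow disome library ATCGT the difference was 1.26 for Pparg and 0.21 for Cd36, and without the HFHS disome library CTAGA it was -0.44 for Plin5, while that of Plin2, near 0, ranged down to -0.12. A p past no threshold does not show equal diet effects, and these intervals give the differences the libraries still allow.

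The ratio of disomes to monosomes within a diet shows which mRNAs carried more stacked ribosomes than their monosome level, relative to the average gene. Plin2 stood above the average gene on both diets, ranking 1679 of 7437 from the highest on HFHS and 1049 of 4713 on chow. Its disome CPM was 1.63 times its monosome CPM in CTAGA and 1.84 times in GCATA on HFHS, against 1.75 times in ATCGT, 1.80 times in AGCTA and 1.49 times in CGTAA on chow. All 5 pairs of libraries thus lay above 1, and the diets overlapped. These single ratios use library totals without the scaling of the fit, so 1 is not exactly the level of the average gene. The log2 ratio was 0.65 ± 0.14 on HFHS (edgeR adjusted p = 0.000718) and 0.66 ± 0.15 on chow (adjusted p = 0.00052). The ratio of Plin2 remained past the threshold in all 12 alternative settings on HFHS, with values of 0.51 to 0.72, and in all 14 on chow, with values of 0.48 to 0.78, among them 0.56 without both AGCTA libraries. The disome and monosome libraries carry different prefixes in the column names, so a difference in preparation and one between footprint classes cannot be told apart.

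Plin2 was the 1 gene called among 9 of the list tested on HFHS, where 11.5% of 7437 genes were called higher and 13.6% lower. It was also the 1 gene called among 6 tested on chow, where 21.6% of 4713 genes were called higher and 23.3% lower. Calls in both directions are thus common in these libraries. Of the list, 0 genes were called lower on either diet. With 9 and 6 genes tested, nothing is read from these counts about the list. The median log2 ratio of the list was 0.09 on HFHS and -0.11 on chow, against -0.07 and -0.01 over all genes tested.

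Hsd17b13 lay on the other side, with a disome CPM of 0.772 times its monosome CPM in CTAGA and 0.933 times in GCATA on HFHS, against 1.05 times in ATCGT, 0.991 times in AGCTA and 0.832 times in CGTAA on chow. Its log2 ratio was -0.43 ± 0.17 on HFHS, just short of the threshold (edgeR adjusted p = 0.0541), and -0.16 ± 0.15 on chow (adjusted p = 0.422). It passed the threshold on HFHS in 4 of 12 alternative settings. Plin3 had a log2 ratio of -0.66 ± 0.32 on HFHS (adjusted p = 0.132) and -0.26 on chow (adjusted p = 0.456), on 6 to 18 disome counts a library. For both genes the interval of the difference between the diets, given above, includes 0.

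Cideb lay close to the average gene, with a log2 ratio of 0.13 ± 0.16 on HFHS (adjusted p = 0.602) and -0.07 ± 0.16 on chow (adjusted p = 0.763). Its HFHS value was -0.01 without the disome library CTAGA. Plin5 had -0.03 ± 0.26 on HFHS (adjusted p = 0.953) and -0.19 ± 0.22 on chow (adjusted p = 0.519). The ratio of Plin5 was 1.48 in CTAGA and 0.764 in GCATA, so its HFHS value rests on libraries that differ about 2-fold. Cd36 had 0.09 ± 0.28 on HFHS (adjusted p = 0.85) and 0.45 ± 0.35 on chow (adjusted p = 0.304). Among the chow libraries its ratio was 1.87 in ATCGT, 1.76 in CGTAA and 0.697 in AGCTA, where it had 4 disome counts. Without the chow disome library ATCGT the log2 ratio of Cd36 on chow turned to -0.12, in a fit that kept the monosome library of that barcode. It was 0.67 without both AGCTA libraries and 0.50 with the barcode as a block, so its direction depended on the libraries kept. Pparg (0.51 ± 0.56), Plin4 (0.38 ± 0.76) and Cidec (-0.82 ± 0.96) were tested on HFHS alone and were not called. Their HFHS disome counts in CTAGA and GCATA were only 4 and 5 for Pparg, 2 and 3 for Plin4, and 1 and 1 for Cidec. Cidea passed the filter in no comparison.

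**Figure D3:**
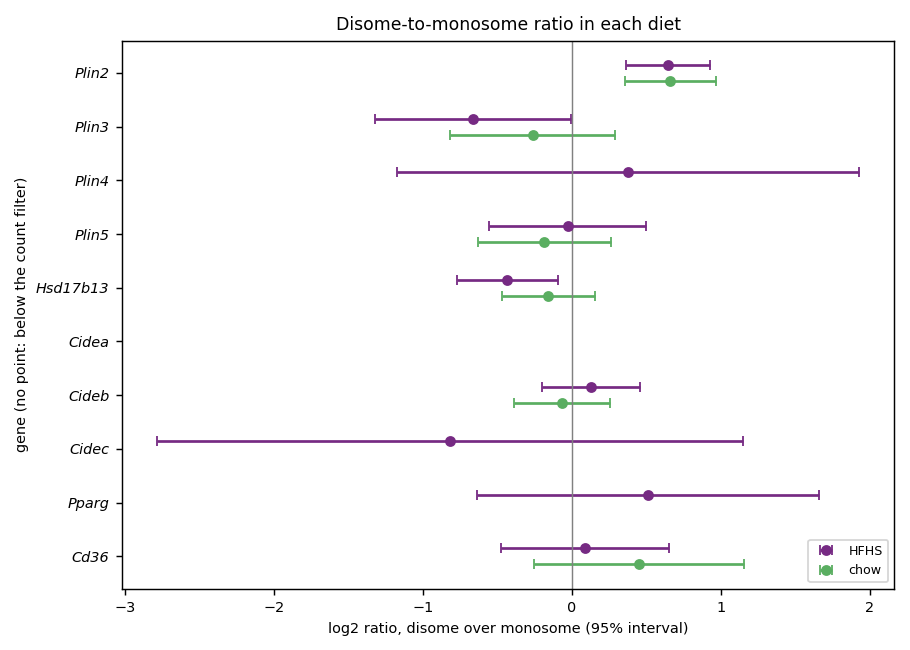
Log2 ratio of disome over monosome footprints with its 95% interval in edgeR's fit, on HFHS and on chow, for each gene that passed the count filter. Plin2 is the gene whose intervals lie above 0 on both diets, at 0.65 on HFHS and 0.66 on chow.

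**Figure D4:**
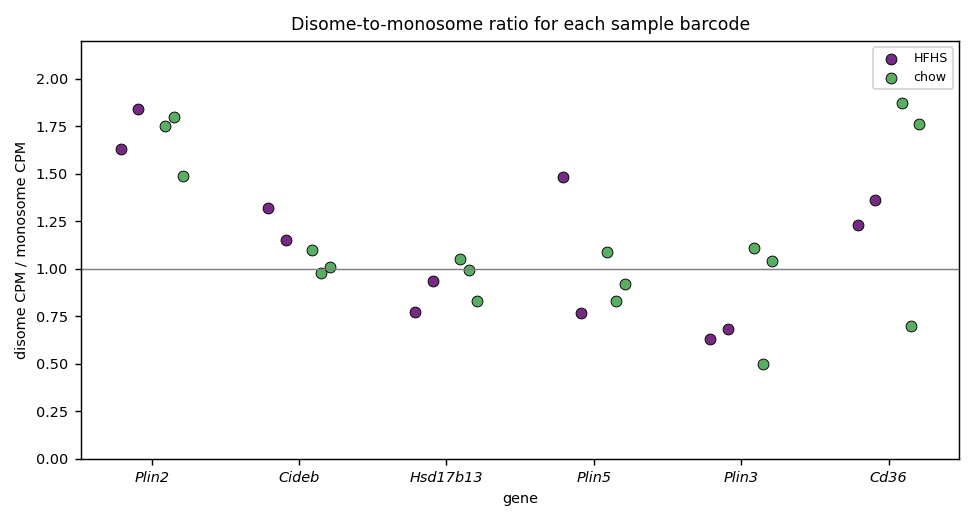
Disome CPM divided by monosome CPM for each sample barcode, for the 6 genes with at least 20 monosome counts in every library. Each point is a barcode, 2 on HFHS and 3 on chow. The line marks a ratio of 1 on library totals, which is not exactly the average gene of the fit. All 5 points of Plin2 lie between 1.49 and 1.84, while those of Plin5, Plin3, Cd36, Hsd17b13 and Cideb fall on both sides of 1.

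In all groups but chow monosomes, 1 library held the highest level of most of the genes. Among the HFHS monosome libraries, GATCA held the highest CPM of 7 of the 10 genes, and of 6 of the 8 that passed the filter, against 34.2% of all 6754 genes tested. Of the 8 genes, Plin3 was the one lowest in GATCA, with 58.5 CPM there and 60.7 and 73.8 CPM in the other HFHS libraries. Without GATCA, the log2 fold change of HFHS over chow in monosomes was 1.50 for Pparg, 0.96 for Cd36, 0.92 for Plin2, 0.45 for Cideb and 0.38 for Hsd17b13. Among the chow disome libraries, ATCGT held the highest CPM of 8 of the 10 genes and of 5 of the 6 that passed the filter, against 31.7% of the 2804 genes tested. Of the 2 HFHS disome libraries, GCATA held the highest CPM of 7 of the 10 genes and of 4 of the 6 that passed the filter. Of the 2804 genes tested, 46.8% were highest there. Among chow monosomes the highest levels were spread: of the genes that passed the filter, 3 were highest in ATCGT, 4 in AGCTA and 1 in CGTAA. These counts were made after the values were seen, and genes of 1 library share its preparation, so they describe the libraries.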

How the data were processed

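Ribosome footprints of mouse liver were measured in 11 libraries, and the deposited table gives whole-number counts of footprints in coding sequences per gene, not normalized, with 1 column per library. Per the submitters' processing notes, cutadapt 3.5 and Bowtie2 were used. The genome build, strand setting, use of molecular identifiers and handling of multiply matching reads were not given in the sources used here, so reads may not be independent molecules, and floors of 3 counts cover counting error only. A further HFHS disome sample was not analysed here.

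Columns name the footprint class, the diet and a sample barcode but no replicate number. The members and lists were chosen with earlier results of these data known, and all 10 genes are named. Gene names come from the rule's list, since 0 of the 22019 identifiers matched the RefSeq table's Ensembl column. Lists for triglyceride synthesis, lipolysis, other droplet proteins, PPAR partners and cell type markers were therefore not analysed.

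CPM was computed on library totals. Each comparison was fitted over all genes with edgeR 4.0.16 (R 4.3.3), after a low-count filter (filterByExpr, min.count 10) and TMM scaling, by the robust quasi-likelihood F-test and Benjamini-Hochberg adjustment at 0.05. Diet and ratio comparisons used the groups compared, and the difference of diet effects used all 11 libraries. The filter scales its minimum to the library totals of each fit. Where both footprint classes are fitted together, genes with only a few disome counts can therefore be tested, which bears on ranks and shares called. SE is the size of log2 fold change over the root of F, and the 95% intervals come from that fit. The fit draws each gene's spread between libraries toward that of other genes. SE, intervals and calls therefore do not measure the gene's own spread alone, which the values of single libraries show. The scripts were tested on simulated data. Ratios of single libraries are given from 20 monosome counts, a minimum changed after the values were seen so that Cd36 in AGCTA is shown. Alternatives were DESeq2 1.42.0, RLE factors, no filter, a minimum count of 50, a non-robust fit, all libraries in 1 fit, each library left out, both AGCTA libraries left out and the barcode as a block.

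Disome and monosome libraries of the same barcode deviated together from their group means on chow (r = 0.87, 0.69 and 0.70 over 2156 genes). Disomes and monosomes of the unlike barcodes ATCGT and CGTAA also correlated, at r = 0.56 both ways, and those involving AGCTA at -0.71 to -0.76, so much of this follows AGCTA standing apart. Chow libraries were treated as paired by barcode in the block fit; no label ties a barcode to an animal. The block changed no call for these genes on chow.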

Additional observations from a re-analysis of the deposited data

How the results depend on the processing

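Of the 5 genes called in HFHS over chow monosomes, 3 were called in the non-robust fit and 3 with all libraries in 1 fit, and 2 to 5 when a library was left out. These refits use the contrast the genes were chosen on and support nothing. Pparg had no adjusted p in DESeq2. Of the 2 genes called in disomes, 1, Plin2, was called in DESeq2, without the filter, in the non-robust fit and whenever a library was left out (1 to 1). Of the genes called in the HFHS ratio of disomes over monosomes, 1 in the reported fit, 2 were called without the filter, 2 with a minimum count of 50 and 1 to 2 when a library was left out; the gene added was Hsd17b13 each time. With the barcode as a replicate block, 2 were called on HFHS, where Hsd17b13 had -0.36 (edgeR adjusted p = 0.0345), 1 on chow, and 0 in the difference of diet effects. On HFHS the libraries of a barcode deviated together only weakly (r = 0.09 and 0.29, n = 2 pairs). The disome library CTAGA had r = 0.14 with the unlike monosome library GATCA and -0.29 with GCATA. With 2 HFHS disome libraries, the values of one mirror those of the other, so the 2 pairs are not separate checks. The cause of these changes was not tested, except that leaving out a library leaves fewer samples. No called result changed sign in any setting run; 22 uncalled values of single genes did, in Cd36, Cideb, Pparg, Plin2 (difference of diet effects), Plin3 and Plin5. Over the genes in both fits, leaving out the filter moved the log2 ratio by a median of -0.17 on chow and -0.14 on HFHS. Leaving out both AGCTA libraries together was run for the chow ratio and the difference of diet effects; in a diet contrast within 1 class it equals leaving out the single AGCTA library. Disome depth limits Pparg, Cidec, Plin4 and Cidea to a few counts a library.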
